A study of Mus musculus with 12 samples.

Results

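The genes described here encode the enzymes that dispose of superoxide and peroxides: catalase (Cat), superoxide dismutase (Sod1), glutathione peroxidases (Gpx1, Gpx4) and peroxiredoxins (Prdx1, Prdx3, Prdx4, Prdx5, Prdx6). They were chosen by gene name from a list of 10, of which 9 were found among the 41708 genes of the count table. The remaining gene of that list, Sod2, was not analysed here. RNA was sequenced from the livers of 12 C57BL6/J mice that had all been fasted for 16 h. The 7 LKO livers came from Ube4a flox/flox mice that also carried an Albumin-Cre transgene, and the 5 flox livers came from Ube4a flox/flox mice. The Albumin promoter drives Cre in hepatocytes, and which cells of these livers keep Ube4a was not tested. Each library is the RNA of whole liver, and the labels give neither age nor sex. The comparison asks how the loss of Ube4a, a ubiquitin chain elongation factor, changes liver gene expression.

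Superoxide dismutases turn superoxide into hydrogen peroxide. Catalase splits hydrogen peroxide inside peroxisomes, glutathione peroxidases reduce it with glutathione, and most peroxiredoxins reduce it with a cysteine that thioredoxin restores. Liver is rich in all of these enzymes, and fatty acid oxidation during fasting is a source of hydrogen peroxide in peroxisomes and of superoxide in mitochondria.

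Libraries held 13399874 to 16525053 counts. Ube4a, the targeted gene, averaged 26.6 ± 3.45 CPM (read counts relative to library size, after scaling) in LKO livers and 134 ± 11.6 CPM in flox livers (SD, n = 7 and 5), and the groups did not overlap (two-sided exact permutation p = 0.00126, the smallest that these group sizes allow). Flox replicates 4 and 5 stood apart on the first principal component, at 45.8 and 64.8 against at most 15.3 for any other liver. The 9 neutrophil markers summed to 273 and 431 CPM in this pair, against 0.139 to 1.70 CPM in LKO livers and 0.153 to 0.839 CPM in flox replicates 1 to 3, and 2 to 8 of the markers were at 0 in each of those 10 livers. The 8 macrophage markers summed to 487 and 700.3 CPM in the pair, against 77.0 to 227 CPM in LKO livers and 31.5 to 102 CPM in the other flox livers. The 6 endothelial and 7 stellate cell markers were also highest in flox replicate 5, at 296 and 349 CPM. The 8 hepatocyte markers summed to 88461 to 121757 CPM in LKO livers and 92597 to 113271 CPM in flox livers, high in every liver. The 4 erythroid markers found spanned 33.5 to 79.0 CPM in LKO livers and 27.4 to 65.8 CPM in flox livers, the 5 cholangiocyte markers 38.0 to 62.3 CPM and 35.9 to 49.2 CPM, and the 6 lymphocyte markers 0.203 to 2.24 CPM and 0.354 to 3.90 CPM. The log2 fold changes of the 9 genes and the counts of each pathway list are therefore given with and without flox replicates 4 and 5. The part of other cell types in the results was not tested, and in whole liver fewer cells of a type cannot be told apart from less RNA per cell.

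None of the 9 genes differed between LKO and flox livers past the adjusted threshold of 0.05, although every one of them averaged higher in LKO livers. In edgeR's quasi-likelihood test, with p-values adjusted by Benjamini-Hochberg over 12615 genes, 0 of 9 passed, beside 0.00793% of all genes tested. Without flox replicates 4 and 5 it was again 0 of 9, beside 0.00781%. Over all 12 livers, DESeq2 called 0 of 9 past an adjusted p of 0.05, beside 28 genes in all. In edgeR's test at an unadjusted p under 0.05 there were 2 of 9, Gpx1 and Prdx4, beside 7.64% of all genes. The log2 fold change of LKO over flox was above 0 for 9 of 9, beside 48.3% of all genes, and ran from 0.04 to 0.40. Its median was 0.11, beside -0.01 over all genes tested. Without flox replicates 4 and 5 it was above 0 for 8 of 9, beside 51%, the median was 0.08 beside 0.00 (0.0041), and 0 of 9 had an unadjusted p under 0.05, beside 5.27%. For none of the 9 were all LKO livers above all flox livers (0.293% of all genes tested) or all below them (0.19%), nor above (0.921%) or below (0.827%) flox replicates 1 to 3. The genes share livers and scaling, so their directions are not independent observations.

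**Figure D1:**
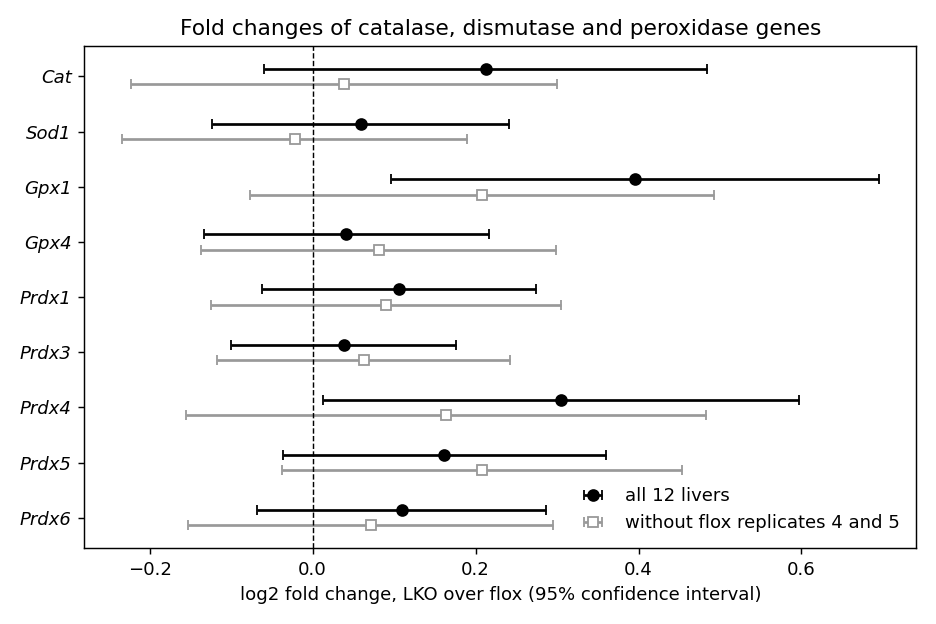
Log2 fold change of LKO over flox livers for each gene (horizontal axis) with its 95% confidence interval, over all 12 livers (filled circles) and without flox replicates 4 and 5 (open squares). All filled circles lie above 0, 7 of their 9 intervals include 0, and without the pair all 9 intervals include 0.

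Compared per length, in FPKM, these mRNAs spanned a wide range in the fasted liver. Gpx1, Sod1 and Cat led, with means over all 12 livers of 1249.7, 1130.1 and 958 FPKM, ranks 44, 50 and 60 among the genes tested. Prdx1, Gpx4, Prdx6, Prdx5 and Prdx3 followed at 216, 166, 120.4, 92.3 and 79.98 FPKM. Prdx4 was lowest at 24.2 FPKM, still above 85.5% of the genes tested. The step from Cat to Prdx1 separated the genes in every liver, with no overlap of their ranges, as did the steps from Prdx1 to Gpx4 and from Prdx3 to Prdx4. Neighbours within the leading group were not separated: Gpx1 exceeded Sod1 in 8 of 12 livers, and Sod1 exceeded Cat in 11 of 12. Prdx5 exceeded Prdx3 in 10 of 12 livers. The length used for Gpx1, 1441 bases, equals its whole span on the chromosome, intron included, which lowers its FPKM against genes counted over exons alone. The other lengths ran from 646 bases for Sod1 to 4799 for Prdx6, with 3035 for Prdx1. In mean CPM, Sod1 and Prdx1 were closer, at 745 and 679 in LKO livers and 715 and 631 in flox livers. The order in FPKM therefore depends on the lengths used, also for genes other than Gpx1. All 9 genes together took 0.618% to 0.811% of the counts in LKO livers and 0.566% to 0.760% in flox livers.

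**Figure D2:**
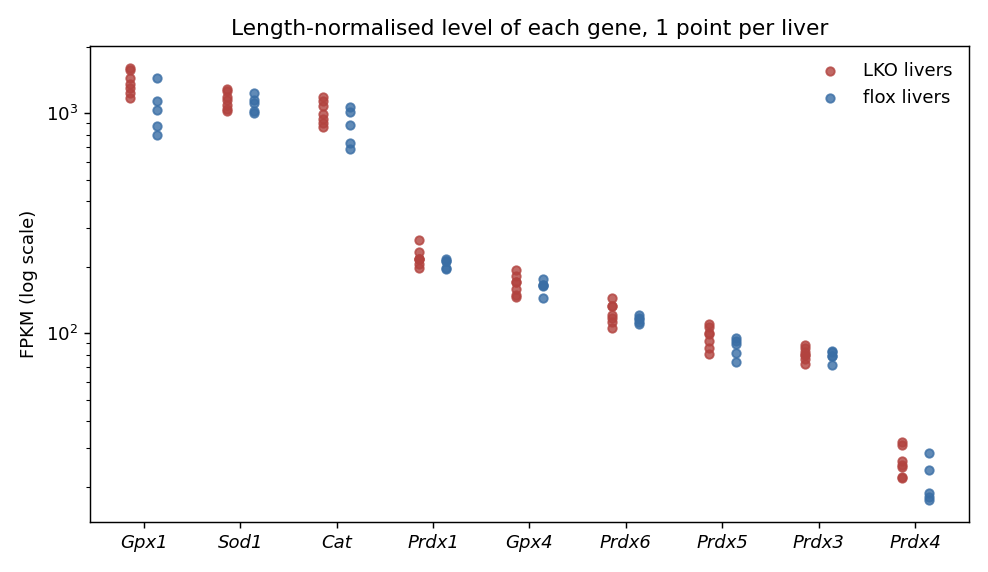
FPKM of each gene on a log axis, 1 point per liver, LKO livers to the left of flox livers for each gene, genes ordered by their mean. Gpx1, Sod1 and Cat lie between 689 and 1613 FPKM and Prdx4 between 17.5 and 32.04 FPKM.

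Sod1, the copper and zinc superoxide dismutase of the cytosol (chromosome 16, 94102668 to 94108248, plus strand, in the coordinates of the table), had a within-group SD of 0.13 on the log2 scale, beside 0.09 to 0.25 for all 9 genes. Its level in LKO livers was 663 CPM at the lowest, 742 at the median and 840.2 at the highest, and flox replicates 1 to 5 held 803, 746, 722, 658 and 649 CPM. The groups overlapped over most of their range, with means of 745 ± 68.3 CPM in LKO livers and 715 ± 63.8 CPM in flox livers (SD, n = 7 and 5). The log2 fold change was 0.06 (95% confidence interval -0.12 to 0.24, adjusted p = 0.890), and -0.02 without flox replicates 4 and 5. With single livers left out it ran from 0.02, without LKO replicate 1 or flox replicate 5, to 0.10 without flox replicate 1. Ccs, the chaperone that loads copper into this enzyme, measured 146 ± 20.3 CPM in LKO livers and 133 ± 10.4 CPM in flox livers.

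Cat encodes catalase, the haem enzyme of peroxisomes (chromosome 2, 108976734 to 109007829, minus strand). LKO livers held 2271 CPM at the lowest, 2604 at the median and 3099 at the highest. Flox replicates 1 to 5 held 2797, 2663, 2321, 1919 and 1795 CPM. The last 2 of these lay below every LKO liver, while flox replicates 1 and 2 lay above the LKO median. Means were 2664 ± 319.95 CPM in LKO livers and 2299 ± 442 CPM in flox livers, with a log2 fold change of 0.21 (95% confidence interval -0.06 to 0.48, adjusted p = 0.708). It was 0.04 (-0.22 to 0.30) without flox replicates 4 and 5.

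Gpx1, the abundant cytosolic glutathione peroxidase (chromosome 9, 113285315 to 113286755, plus strand), showed the largest fold change of the 9 over all livers, and one equal to that of Prdx5 (0.21 for each) without flox replicates 4 and 5. It lies on the chromosome of Ube4a, 68.5 Mb away in the table's coordinates. LKO livers held 1699.7 CPM at the lowest, 1977 at the median and 2335 at the highest. Flox replicates 1 to 5 held 2076, 1644, 1499, 1266 and 1149 CPM. All 7 LKO livers lay above flox replicates 2 to 5, and 3 of them above flox replicate 1. Means were 2009 ± 243 CPM in LKO livers and 1527 ± 363 CPM in flox livers, with a log2 fold change of 0.40 (standard error 0.14, 95% confidence interval 0.10 to 0.69), an unadjusted p of 0.0131 and an adjusted p of 0.625 in edgeR's test. Without flox replicates 4 and 5 it was 0.21 (-0.08 to 0.49).

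Gpx4 (chromosome 10, 83405561 to 83417218, plus strand) reduces lipid hydroperoxides within membranes and protects cells from ferroptosis. LKO livers held 254 CPM at the lowest, 297 at the median and 334 at the highest, and flox replicates 1 to 5 held 286, 288, 249, 284 and 303 CPM. The groups overlapped, with means of 290.2 ± 29.8 CPM in LKO livers and 282 ± 19.9 CPM in flox livers, and the log2 fold change was 0.04 (95% confidence interval -0.13 to 0.22, adjusted p = 0.923), and 0.08 without the pair.

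Gpx1 and Gpx4 both encode selenoproteins, in which a TGA codon, a stop codon elsewhere, is read as selenocysteine, the active residue. The coding sequence around that codon is shown for both because it is the feature that sets them apart from the other 7 genes. It is taken from GENCODE M21 on GRCm38, another build than the table's, and capitals mark the TGA at chr9:108339451-108339453 and chr10:80054737-80054739, both on the plus strand.
Gpx1: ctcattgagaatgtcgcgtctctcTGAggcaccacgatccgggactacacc
Gpx4: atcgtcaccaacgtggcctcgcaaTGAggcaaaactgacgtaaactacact

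The ratio of these selenoprotein mRNAs varied across livers. The log2 ratio of Gpx1 to Gpx4 in FPKM was 2.90 at the lowest, 3.05 at the median and 3.20 at the highest in LKO livers, and 3.12, 2.77, 2.85, 2.42 and 2.18 in flox replicates 1 to 5. The lowest ratios were those of flox replicates 4 and 5, in which Gpx1 was at its lowest and Gpx4 was within the range of the LKO livers. Flox replicates 2 and 3 also lay below every LKO liver, and flox replicate 1 lay among them. This ratio was chosen after its values were seen and was not tested. Of 10 genes tested for selenocysteine incorporation and selenium supply, 0 passed, beside 0.00793% of all genes. Of the 10, 8 had a log2 fold change above 0, beside 48.3% of all genes, and the median was 0.03. Without flox replicates 4 and 5 there were 5 of 10 above 0, beside 51% of all genes, and the median was 0.01. Scly, selenocysteine lyase, measured 82.8 ± 7.53 CPM in LKO livers and 82.0 ± 4.74 CPM in flox livers, and Eefsec, the elongation factor for selenocysteine, 36.9 ± 3.31 CPM in LKO livers and 36.8 ± 2.52 CPM in flox livers. Rpl30, a ribosomal protein that binds the selenocysteine insertion element, measured 133 ± 14.7 CPM in LKO livers and 129.7 ± 9.34 CPM in flox livers.

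**Figure D3:**
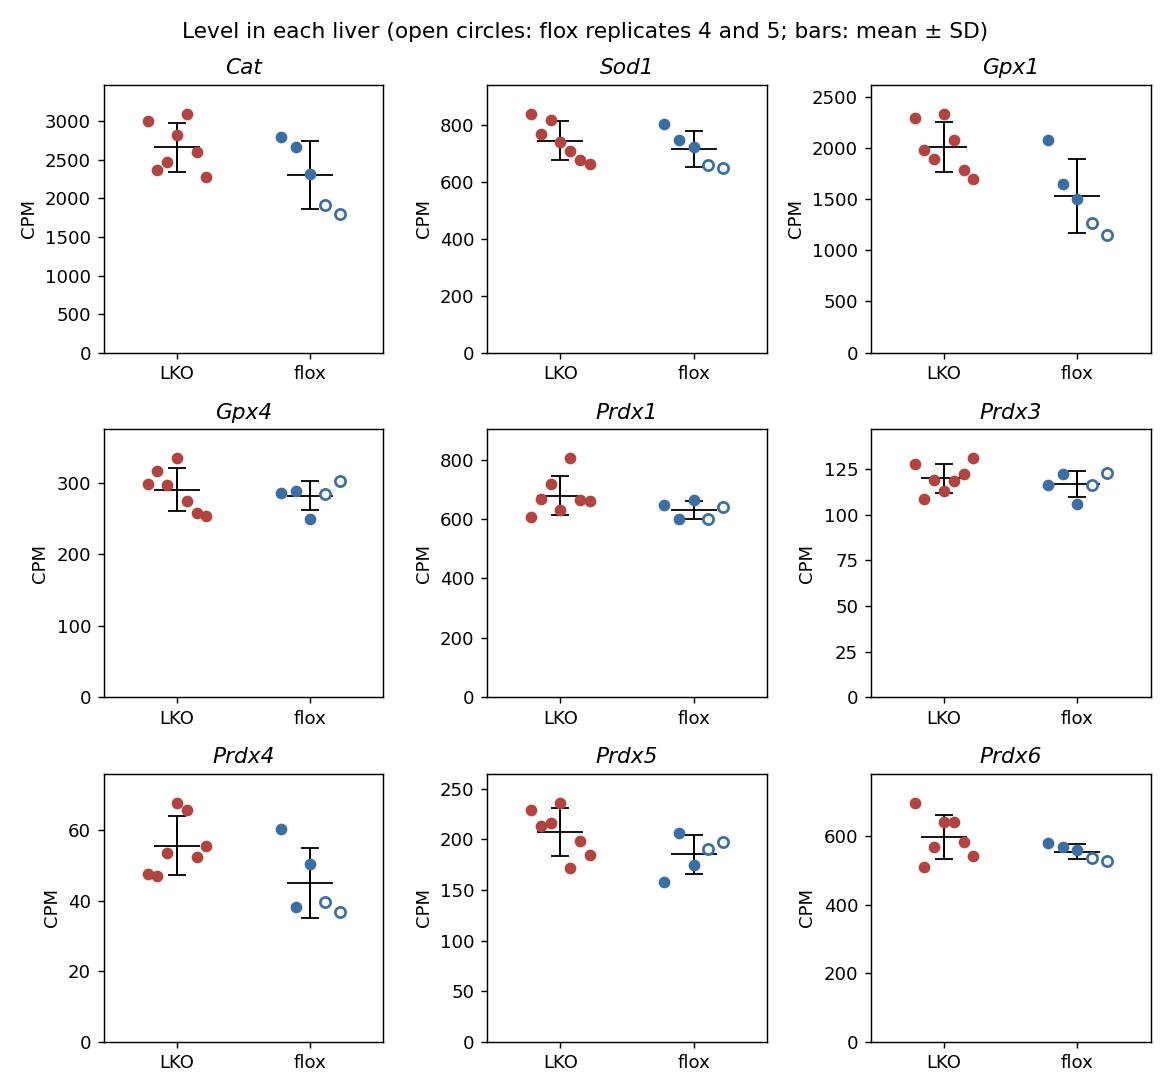
CPM of each gene (vertical axes from 0) in each LKO liver (left) and each flox liver (right), with the mean and SD of each group as bars and flox replicates 4 and 5 as open circles. The open circles lie below all LKO livers for Cat, Sod1, Gpx1 and Prdx4, and within the range of the LKO livers for Gpx4, Prdx3, Prdx5 and Prdx6.

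The peroxiredoxins of the cytosol showed small differences. Prdx1 (chromosome 4, 122152825 to 122168095, plus strand) held 606 CPM at the lowest, 665 at the median and 806 at the highest in LKO livers, and 649, 599.9, 664, 599 and 642 CPM in flox replicates 1 to 5. LKO replicate 5 was the highest liver, and LKO replicates 1, 4 and 7 lay within the flox range, at 606, 630 and 660 CPM. Means were 679 ± 65.8 CPM in LKO livers and 631 ± 29.8 CPM in flox livers, with a log2 fold change of 0.11 (95% confidence interval -0.06 to 0.27, adjusted p = 0.768). Without LKO replicate 5 alone it was 0.05, and without flox replicates 4 and 5 it was 0.09.

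Prdx6 (chromosome 1, 172154466 to 172165568, minus strand), a peroxiredoxin restored by glutathione rather than thioredoxin, also has phospholipase activity. LKO livers held 511 CPM at the lowest, 583 at the median and 699 at the highest, and flox replicates 1 to 5 held 580.2, 569, 559, 538 and 527 CPM. The LKO livers were more spread out and reached both above and below all flox livers, with coefficients of variation of 10.9% in LKO livers and 3.97% in flox livers. The log2 fold change was 0.11 (95% confidence interval -0.07 to 0.29, adjusted p = 0.769). It was 0.07 without the pair, and 0.06 without LKO replicate 1 alone, the highest liver.

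Prdx3 (chromosome 19, 62930765 to 62941195, minus strand), which sits in the mitochondrial matrix, held 108 CPM at the lowest, 119 at the median and 131 at the highest in LKO livers, and 116, 122, 106, 116 and 123 CPM in flox replicates 1 to 5. Its within-group SD on the log2 scale, 0.09, was larger than that of 11.4% of the 500 genes nearest to it in level. The log2 fold change was 0.04 (95% confidence interval -0.10 to 0.18, adjusted p = 0.904), and 0.06 (-0.12 to 0.24) without flox replicates 4 and 5. With single livers left out it ran from 0.0057 without flox replicate 3 and 0.01 without LKO replicate 7 to 0.05.

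Prdx5 (chromosome 19, 4083504 to 4086913, minus strand), found in mitochondria, peroxisomes and cytosol, held 172 CPM at the lowest, 213 at the median and 236 at the highest in LKO livers, and 158, 206, 175, 191 and 198 CPM in flox replicates 1 to 5. Means were 207 ± 23.5 CPM in LKO livers and 185 ± 19.2 CPM in flox livers, and 4 of 7 LKO livers lay above all flox livers. The log2 fold change was 0.16 (95% confidence interval -0.04 to 0.36, adjusted p = 0.701), and 0.21 (-0.04 to 0.45) without flox replicates 4 and 5. Without flox replicate 1 alone it was 0.10. Over 409 bases its gene model overlaps that of Trmt112 on the opposite strand, which averaged 107 counts against at least 2284 for Prdx5, and the strand setting of the counting is not given in the sources used here.

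Prdx4 (chromosome X, 157678385 to 157695766, minus strand), the peroxiredoxin of the endoplasmic reticulum, had the second largest fold change over all livers and the third largest without flox replicates 4 and 5. LKO livers held 46.8 CPM at the lowest, 53.3 at the median and 67.8 at the highest, and flox replicates 1 to 5 held 60.2, 38.2, 50.3, 39.5 and 36.7 CPM. Flox replicates 2, 4 and 5 lay below every LKO liver, while flox replicate 1 exceeded 5 of the 7. Means were 55.6 ± 8.29 CPM in LKO livers and 44.98 ± 10.05 CPM in flox livers, with a log2 fold change of 0.30 (standard error 0.14, 95% confidence interval 0.01 to 0.60), an unadjusted p of 0.0422 and an adjusted p of 0.650 in edgeR's test. Without flox replicates 4 and 5 the log2 fold change was 0.16 (-0.16 to 0.48).

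Livers differed from one another in which of these mRNAs they held most of. On the log2 scale, relative to the mean of each gene over all livers, Gpx1 was at 0.38 and 0.40 in LKO replicates 1 and 4, and at -0.48 and -0.62 in flox replicates 4 and 5. Cat was at -0.37 and -0.47 in that pair and Prdx4 at -0.34 and -0.45, while Gpx4 was at -0.01 and 0.08. Flox replicate 1 was above the mean for Cat, Sod1, Gpx1 and Prdx4, and at -0.32 for Prdx5. The within-group SD of log2 CPM was 0.25 for Gpx1 and Prdx4 and 0.22 for Cat, beside a median of 0.23 over all genes tested, and 0.09 to 0.16 for the other 6 genes. Among the 500 genes nearest in level, it was larger than that of 84.0% for Prdx4, 71.7% for Gpx1 and 63.7% for Cat. For the other 6 genes this share was 11.4% to 57.1%.

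**Figure D4:**
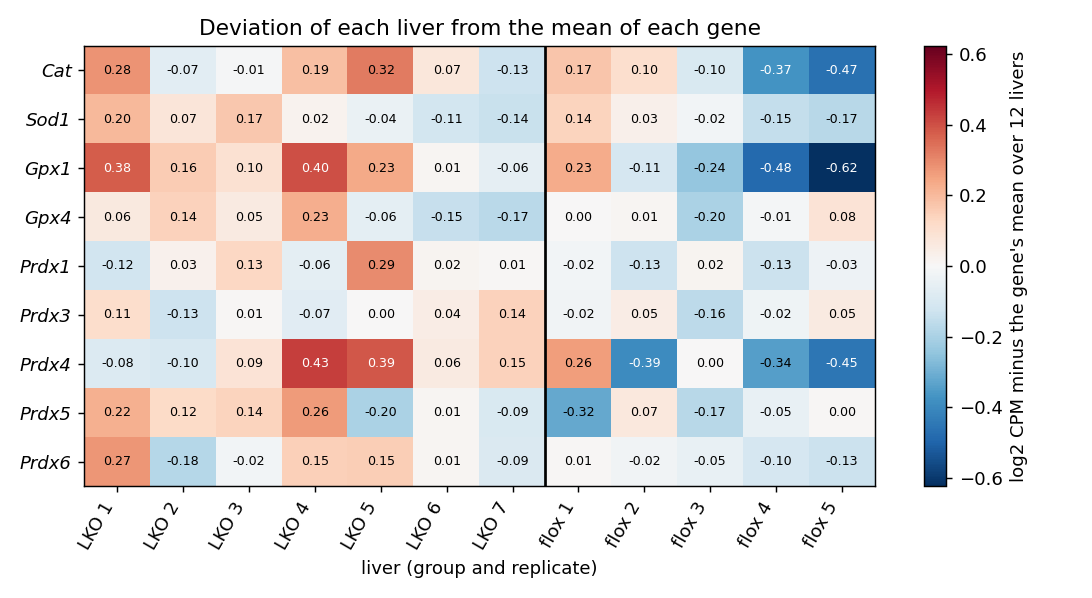
Log2 CPM of each gene (rows) in each liver (columns, LKO livers left of the line, flox livers right of it) minus the gene's mean over 12 livers. Flox replicates 4 and 5 are lowest for Gpx1, at -0.48 and -0.62, and close to the mean for Gpx4 and Prdx3.

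Some of the genes varied together across livers. Because flox replicates 4 and 5 stood apart, correlations of log2 CPM were taken over the 10 other livers, for 36 pairs, with permutation tests of 100000 resamples and Benjamini-Hochberg adjustment over the pairs. Cat and Prdx6 had a Pearson r of 0.86 (permutation p = 0.00114, adjusted p = 0.041) and a Spearman rho of 0.89 (permutation p = 0.00143, adjusted p = 0.0515). The r was 0.86 again without the 2 livers farthest from the median of Cat, and 0.91 over the 7 LKO livers alone. Cat and Gpx1 had an r of 0.72 (permutation p = 0.0223, adjusted p = 0.268) and a rho of 0.76 (permutation p = 0.0151, adjusted p = 0.181), which did not pass, and nor did any of the other pairs. The levels compared come from the same libraries and share their scaling.

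Over all 12 livers, the gene most like each of the 9, among 7526 others with a mean of at least 10 CPM, is given as a description chosen from many. Those most alike were Mup3, a major urinary protein of a family with near-identical copies, for Gpx1 (r = 0.95) and Nav2 for Cat (r = 0.95). They were Larp1b for Prdx4 (r = 0.93), Pcbd2 for Prdx5 (r = 0.93), Aco1, cytosolic aconitase, for Prdx6 (r = 0.92) and Pnrc1 for Sod1 (r = 0.90). Fkbp9 and Tmem170b were most alike to Gpx4 and Prdx1 (r = 0.88 for each), and Tmem186 to Prdx3 (r = 0.86). Over the 10 livers without flox replicates 4 and 5, the same pairs had r from 0.87 to 0.98, but the most alike gene was another one for all except Prdx1 and Prdx6. It was then Txndc17 for Gpx1 (r = 0.97), Isoc1 for Cat (r = 0.92), Ccdc85b for Sod1 (r = 0.95), Myl12b for Gpx4 (r = 0.94), Pex19 for Prdx3 (r = 0.95), Pigk for Prdx4 (r = 0.95) and Ccs for Prdx5 (r = 0.93).

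Of the other dismutases and peroxidases, 4 were tested and 0 passed, beside 0.00793% of all genes. Prdx2, the cytosolic peroxiredoxin abundant in red cells, measured 111 ± 6.03 CPM in LKO livers and 108 ± 4.53 CPM in flox livers. Sod3, the extracellular dismutase, measured 18.1 ± 4.15 CPM in LKO livers and 24.8 ± 13.9 CPM in flox livers. Gpx3, the plasma glutathione peroxidase, measured 10.3 ± 2.01 CPM in LKO livers and 18.2 ± 10.5 CPM in flox livers. Their log2 fold changes were -0.46 and -0.83 with all livers, and 0.27 and -0.10 without flox replicates 4 and 5. Gpx7 averaged 1.03 ± 0.71 CPM in LKO livers and 0.71 ± 0.48 CPM in flox livers, with a log2 fold change of 0.51 with all livers and 1.46 without that pair.

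The genes that supply the peroxidases with electrons, and those that make their substrate, likewise had 0 members past the threshold, beside 0.00793% of all genes. In the thioredoxin system 4 of 10 genes tested had a log2 fold change above 0, beside 48.3% of all genes, with a median of -0.01. Without flox replicates 4 and 5 it was again 4 of 10, beside 51%, with a median of -0.03. Txn1, cytosolic thioredoxin, measured 142 ± 12.2 CPM in LKO livers and 112 ± 15.6 CPM in flox livers, and its inhibitor Txnip measured 166 ± 23.3 CPM in LKO livers and 215 ± 43.4 CPM in flox livers. Their log2 fold changes were 0.35 and -0.37, and 0.23 and -0.15 without flox replicates 4 and 5. Txn2, mitochondrial thioredoxin, measured 209 ± 20.4 CPM in LKO livers and 210.2 ± 21.6 CPM in flox livers. Txnrd2, mitochondrial thioredoxin reductase, measured 36.7 ± 3.16 CPM in LKO livers and 31.4 ± 8.98 CPM in flox livers, a log2 fold change of 0.22 that was 0.01 without flox replicates 4 and 5. Srxn1, which repairs overoxidised peroxiredoxins, measured 95.98 ± 19.9 CPM in LKO livers and 96.04 ± 19.8 CPM in flox livers, a log2 fold change of 0.00 (-0.00038) that was -0.17 without the pair. In the glutathione system 5 of 16 were above 0, beside 48.3% of all genes, with a median of -0.05. Without flox replicates 4 and 5 it was 4 of 16, beside 51%, with a median of -0.07. Gsr, glutathione reductase, measured 114 ± 8.01 CPM in LKO livers and 117 ± 5.42 CPM in flox livers, and Gclm, the regulatory subunit of the enzyme that starts glutathione synthesis, 160.4 ± 21.98 CPM in LKO livers and 180.3 ± 21.5 CPM in flox livers. Slc25a39, which carries glutathione into mitochondria, measured 649.6 ± 41.2 CPM in LKO livers and 684 ± 59.0 CPM in flox livers, and Glrx5, a mitochondrial glutaredoxin, 140.2 ± 15.2 CPM in LKO livers and 137 ± 16.3 CPM in flox livers.

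Among genes listed as sources of hydrogen peroxide or superoxide, most of them oxidases, 0 of 18 tested passed, beside 0.00793% of all genes. Of these, 11 had a log2 fold change above 0, beside 48.3%, with a median of 0.11. Without flox replicates 4 and 5 it was 14 of 18, beside 51%, with a median of 0.11. Uox, urate oxidase, measured 1580.4 ± 222 CPM in LKO livers and 1674 ± 174 CPM in flox livers, and Acox2, an oxidase of branched acyl groups, 335 ± 46.7 CPM in LKO livers and 357 ± 47.5 CPM in flox livers. For metal supply and peroxisome import 0 of 15 passed, beside 0.00793% of all genes. A log2 fold change above 0 was found for 9 of the 15, beside 48.3%, with a median of 0.04. Without flox replicates 4 and 5 there were 5 of 15 above 0, beside 51%, with a median of -0.05. Atox1, a copper chaperone, measured 94.4 ± 10.3 CPM in LKO livers and 76.8 ± 7.07 CPM in flox livers.

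NRF2 is the factor that induces many antioxidant genes. Of 18 genes tested for NRF2 and its targets, 0 passed, beside 0.00793% of all genes. A log2 fold change above 0 was found for 7, beside 48.3%, with a median of -0.03. Without flox replicates 4 and 5 there were 6 of 18 above 0, beside 51%, with a median of -0.12. Over all livers the fold changes of this list ran from -1.01 to 1.02. At an unadjusted p under 0.05 in edgeR's test there were 4 of 18, beside 7.64% of all genes. These were Nqo1, Gstm4 and Ces1g, with log2 fold changes of 0.62, 0.23 and 1.02, and Hmox1, with -1.01. Without flox replicates 4 and 5 the values were 0.70, 0.26 and 0.76, and -0.22 for Hmox1. Fth1, a ferritin subunit, measured 2241 ± 219.8 CPM in LKO livers and 2401 ± 167 CPM in flox livers, and Ephx1, an epoxide hydrolase, 503.0 ± 75.7 CPM in LKO livers and 564 ± 132 CPM in flox livers. The log2 fold change of Ephx1 was -0.17, and -0.32 without the pair. NRF2 binds the antioxidant response element, searched here as TGACNNNGC on both strands of RefSeq promoters (GRCm38.p6, 250 bases before to 50 after the start), of which 12.4% of 32851 hold it. Promoters were found for 8 of the 9 genes, and 2 of the 8 held these letters, at chr4:116685456-116685484 for Prdx1 and chr16:90220696-90220724 for Sod1. Both are shown with 10 bases on each side, read on the minus strand, because Prdx1 is a known NRF2 target, and capitals mark the match.
Prdx1: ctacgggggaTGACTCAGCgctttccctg
Sod1: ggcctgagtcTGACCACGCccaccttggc

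The match ends 125 bases before the start of Prdx1 and 48 bases before that of Sod1. Log2 fold changes of these genes, 0.11 and 0.06, lay within the range of the others. A match is a description of letters and not a sign of binding.

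**Figure D5:**
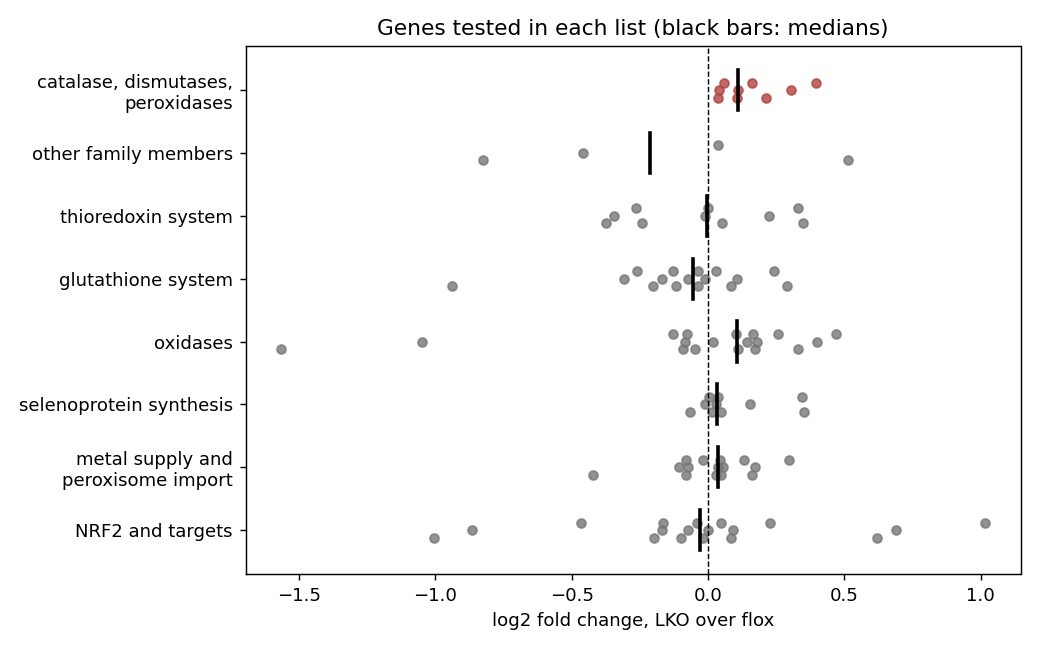
Log2 fold change of LKO over flox for each gene tested, by list (rows), with the median of each list as a black bar. Over all livers, the 9 catalase, dismutase and peroxidase genes lie between 0.04 and 0.40, while each of the 7 pathway lists has genes on both sides of 0. The median was 0.11 both for the 9 genes and for the row of oxidases, which holds all genes listed as peroxide or superoxide sources. Without flox replicates 4 and 5, 8 of the 9 genes were above 0 and Sod1 was at -0.02. The medians were then 0.08 for the 9 genes and 0.11 for the list of peroxide or superoxide sources.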

How the data were processed

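Per the labels' protocols, TRIzol was used to isolate RNA and an NEBNext Ultra kit to make libraries. The authors deposited raw counts for each gene, the input of all tests, and also FPKM. HISAT2 2.0.5 and featureCounts 1.5.0-p3 appear in the submitters' processing notes, as do fastp, CASAVA 1.8, DESeq2 1.20.0 and the build GRCm39. The identifiers of genes are from the C57BL/6NJ strain annotation, and positions are printed as the table has them. The handling of reads shared with pseudogenes or similar genes is not given in the sources used here. Deposited FPKM values were checked against the counts, leaving out low counts. Each value checked equals its count over the length and a size constant for that library.

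Genes were filtered with filterByExpr, which left 12615, scaled by TMM and tested with edgeR 4.0.16 (glmQLFit, robust, no covariate) in R 4.3.3. CPM use the scaled library sizes of the filtered genes. Standard errors are the log2 fold change over the square root of the F statistic. Alternatives used DESeq2 1.42.0 and limma 3.58.1. The code was tested on simulated data. Pairs of livers within a group differed by more than counting error, with chi-square at least 8.47 times its degrees of freedom. The design text counts as many mice as libraries, with no litter, cage or batch given.

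The genes, the 7 pathway lists and the 8 marker lists were chosen with earlier results of these data known. The text names the 9 genes, Ube4a, their tested relatives, Ccs, Srxn1, Txn1, Txn2, Txnrd2 and Gsr, and of each other list the 3 tested genes with the highest mean FPKM, and for each of the 9 the gene most correlated with it. For NRF2 and its targets it also names the genes with an unadjusted p under 0.05 in edgeR's test. One gene that the rule names is not reported here. Rows with an identifier but a dash for the gene name held 1.36% to 1.95% of counts and stayed in the library sizes and the fit.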

Additional observations from a re-analysis of the deposited data

Results flagged for a closer look

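Among 20 sets of values checked (9 genes and Ube4a in each group), 1 had a liver far from the others. Ube4a was at 34.0 CPM in LKO replicate 7, above the next LKO liver at 26.8 CPM and far below every flox liver. The threshold used, Dixon's 95% critical value, is by its definition passed by about 1 set in 20 by chance.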

How the results depend on the processing

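In each of 24 alternatives (other scaling factors, low-count filters, DESeq2, limma on counts or FPKM, non-robust dispersion, the replicate block, and livers left out) 0 of the 9 genes passed, and their smallest adjusted p was 0.231, for Gpx1 in limma voom with quality weights. Their median log2 fold change ran from 0.08 to 0.13 over these alternatives, and from 0.09 to 0.13 over single livers left out. The direction turned for Sod1 without flox replicates 4 and 5 (-0.0219), for Gpx4 without LKO replicate 4 (-0.0062, with 0.065 at the other end of the single livers left out) and for Prdx3 with the replicate number as a block (-0.0037). The cause was not tested. Gpx1 ran from 0.21 without flox replicates 4 and 5 to 0.53 without flox replicate 1, and Cat from 0.04 to 0.29 under the same settings. Over all genes 1 passed in edgeR, 1 to 2 with single livers left out and 28 in DESeq2 (12 higher, 16 lower). Ube4a ran from -2.41 to -2.03. Livers that share a replicate number across groups did not deviate together (correlations from -0.29 to 0.10). Whether the numbers mark pairs cannot be told from this, because no litter, cage or batch is given. The replicate block called 0 of the 9. The livers of a group differed by more than counting error, so depth alone does not set the width of the intervals.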
